A study of Mus musculus with 3 samples.

Results

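A set of 10 imprinted genes linked to stem cell quiescence was followed in mouse hematopoietic stem and progenitor cells (HSPCs). They are H19, Igf2, Igf2r, Meg3, Dlk1, Rian, Mirg, Grb10, Peg3 and Ndn. They are listed by gene symbol, and no measured value enters the rule, but earlier results of these data were known when they were chosen. All 10 had an entry among the 24421 gene symbols counted. The cells came from bone marrow of C57BL/6 mice carrying Cic flox/flox alleles and given tamoxifen, and they were sorted for c-Kit and Sca-1 after exclusion of cells with the lineage markers CD4, CD8a, CD11b, B220, Gr-1 or Ter119. These were the control mice of a study on loss of Capicua, a transcriptional repressor, in T cell development and leukaemia. The 3 RNA-seq libraries form 1 group and are numbered by the replicate number in their titles. The mutant group was not analysed here, so there is no contrast between genotypes, and the labels of the controls name no Cre driver, age or number of mice. Whether the libraries came from separate animals is not said, so p-values measure only the spread between these libraries, which may be technical.

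Imprinted genes are transcribed mainly from the copy inherited from 1 parent. DNA methylation set in the germ line tells the parental copies apart and lies on the active or the silent one, depending on the gene. Several imprinted genes act on growth signalling, and in mouse blood stem cells the maternally expressed RNAs H19 and Meg3 and the paternally expressed gene Ndn have been tied to holding long-term stem cells out of the cell cycle. In an inbred strain the parental copies carry the same sequence, so the counts below give the total of both and cannot show which copy was used.

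Gene counts per library came to 30718562, 25097769 and 30032593 in libraries 1, 2 and 3. Levels are given as CPM, each count scaled to a library total of 1000000 gene counts, with means ± SD (n = 3). In such data a count of 0 is taken to allow up to 0.0977 to 0.120 CPM depending on the library (3 counts). The exact Poisson limits given below are 2-sided and lie higher, at 0.120 CPM for 0 counts in library 1. Such limits and the intervals below cover counting error only, since amplified reads are not independent molecules. The sort genes Kit and Ly6a (Sca-1) averaged 826 and 103 CPM, and each of the 12 markers of long-term stem cells averaged 1 CPM or above. In such a bulk sort, fewer cells of a type and less RNA per cell cannot be told apart.

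Grb10 and Igf2r were expressed above 50 CPM, Meg3, Rian and Ndn at a few CPM, and Igf2, Peg3, Dlk1, H19 and Mirg below 1 CPM. Thus 5 of 10 members reached a mean of 1 CPM, against 53.1% of all gene symbols. Each member had at least 1 count in some library, and 8 of 10 had counts in every library, the exceptions being H19 and Mirg. The median member lay at 1.61 CPM and the median of all symbols at 1.73 CPM. Grb10 and Igf2r together held between 87.5% and 88.9% of the summed CPM of the 10 genes.

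**Figure D1:**
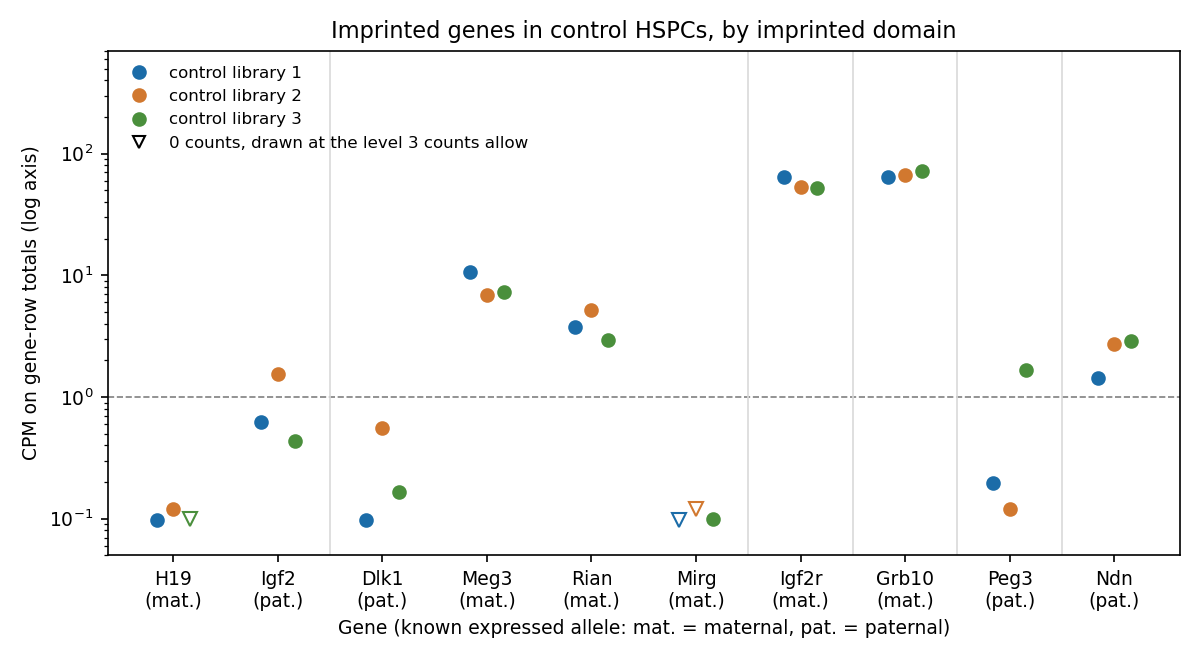
CPM of each of the 10 imprinted genes (log axis) in each control library, grouped by imprinted domain, with filled circles for libraries and open triangles where a library had 0 counts, drawn at the level that 3 counts allow. Grb10 and Igf2r lie above 50 CPM in every library, and Peg3, Dlk1 and Igf2 have 1 library well above the other two.

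The ligand of this group had few counts. Igf2 (chr7:142650766-142666816, minus strand, ENSMUSG00000048583.16, mm10) encodes insulin-like growth factor 2, a growth factor made chiefly in the fetus. Libraries 1, 2 and 3 gave 19, 39 and 13 counts, which is 0.619, 1.55 and 0.433 CPM and a mean of 0.868 ± 0.601 CPM. Only library 2 passed 1 CPM, at 3.59 times the level of library 3 (exact 95% interval 1.88 to 7.33), and without library 2 the mean was 0.526 CPM. Of the 50-base words in its transcripts, 62.1% also occur in an annotated readthrough or antisense transcript of the same locus, so the count is uncertain as to which transcript it came from. Reads that fit more than 1 gene may have been counted for none, so the true level of Igf2 is uncertain too. Among counted symbols matched to GENCODE, only Igf2os shares exon bases with Igf2. It shares 98 bases and had 1, 0 and 0 counts.

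H19 (chr7:142575529-142578143, minus strand, ENSMUSG00000000031.16), the maternally expressed non-coding RNA next to Igf2, had 3, 3 and 0 counts, a mean of 0.0724 CPM. Exact Poisson 95% limits reach at most 0.349 CPM in any library, so H19 was at or near the limit of detection in each of them. Its first exon holds the hairpin of miR-675, whose own entry had 0 counts in all 3 libraries. The 2 mature miRNAs of that hairpin, from RefSeq (GRCm38.p6), are given 5′ to 3′ with the seed (bases 2 to 8) in capitals, because they are made from the H19 transcript itself:
miR-675-5p: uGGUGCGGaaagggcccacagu
miR-675-3p: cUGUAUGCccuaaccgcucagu
The libraries were sheared to 400 bp inserts, so they measure the host RNA and not mature miRNAs of this size.

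Most neighbours of H19 and Igf2 on distal chromosome 7 were expressed, and 10 of the 14 listed averaged 1 CPM or above. Their median was 5.88 CPM. Kcnq1ot1, the long antisense RNA that silences genes of the adjacent Kcnq1 domain on the paternal copy, was seen at 524, 963 and 612 CPM, and library 2 was the highest. The next highest by CPM were Cd81, a tetraspanin gene, at 189 ± 18.3 CPM and Nap1l4, a histone chaperone gene, at 116 ± 18.6 CPM. Per kilobase of annotated exons Kcnq1ot1 lay below both, at 7.52 CPM against 65.6 for Cd81 and 37.5 for Nap1l4. Cdkn1c, which encodes the cell cycle inhibitor p57 and was named outside the rule, lay at 3.19, 8.89 and 3.90 CPM and was also highest in library 2. Ins2 and Th, the genes beside Igf2, had no count.

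The receptor that removes IGF2 was well expressed. Igf2r (chr17:12682406-12769664, minus strand, ENSMUSG00000023830.14) encodes a membrane receptor that takes up IGF2 for degradation and carries lysosomal enzymes tagged with mannose 6-phosphate. It was counted 1989, 1334 and 1579 times, or 64.7, 53.2 and 52.6 CPM, a mean of 56.8 ± 6.87 CPM and rank 3898 among all symbols. Library 1 was the high one, and libraries 2 and 3 lay within 1 CPM of each other. Airn, the paternally expressed antisense RNA that starts inside Igf2r, had 106, 139 and 111 counts (4.23 ± 1.14 CPM). Per kilobase of annotated exons, Igf2r lay 5.49 ± 1.77 times above Airn. The strand setting of the counting is not given, so reads of the pair could not be told apart where unspliced RNA overlaps. Its other neighbour Slc22a3, a cation transporter gene, lay at 129 ± 9.89 CPM, while Slc22a2 had 0, 0 and 2 counts.

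The adaptor Grb10 was the highest of the 10 by mean, in CPM and per kilobase of exons. Grb10 (chr11:11930508-12038683, minus strand, ENSMUSG00000020176.17) binds activated insulin and IGF1 receptors and restrains their signal. It was counted 1973, 1677 and 2171 times, or 64.2, 66.8 and 72.3 CPM, a mean of 67.8 ± 4.11 CPM and rank 3357. The highest library lay 1.13 times above the lowest, the smallest such ratio of the 8 members counted in every library. Scaled to spike-in totals the ratio was 2.87, above those of Meg3, Igf2r and Rian (1.77, 2.07 and 2.14). This scaling multiplies all genes of a library by a shared factor, largest in library 3. A gene that is even in CPM must therefore rise there. Its neighbours Ddc and Cobl stayed below 1 CPM, with 7, 19 and 2 counts for Ddc and 1, 10 and 14 for Cobl.

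The windows of 250 bases before the RefSeq starts (GRCm38.p6, 14 windows for 9 members, H19 without an entry) differ in their number of CpG dinucleotides. The first of 2 Grb10 windows holds 40 CpGs, more than 98.7% of the 32851 windows of all genes, and its second holds 8. That of Igf2r holds 27, more than 91.4%. The first window of Meg3 and those of Dlk1, Peg3 and Ndn hold 10, 8, 8 and 5, the 4 windows of Igf2 hold between 1 and 22, and that of Rian holds 0, with a median of 6 over all genes. The first window of Grb10 and that of Rian are shown 5′ to 3′ on the transcript strand, with CpGs in capitals, because they are the ends of this range:
Grb10, chr11:12037421-12037670, minus strand: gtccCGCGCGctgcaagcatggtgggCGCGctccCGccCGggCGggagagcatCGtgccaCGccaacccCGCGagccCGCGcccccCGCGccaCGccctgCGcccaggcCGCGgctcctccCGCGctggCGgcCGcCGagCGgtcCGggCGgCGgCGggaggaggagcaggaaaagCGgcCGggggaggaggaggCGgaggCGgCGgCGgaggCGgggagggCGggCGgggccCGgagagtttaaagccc
Rian, chr12:109603695-109603944, plus strand: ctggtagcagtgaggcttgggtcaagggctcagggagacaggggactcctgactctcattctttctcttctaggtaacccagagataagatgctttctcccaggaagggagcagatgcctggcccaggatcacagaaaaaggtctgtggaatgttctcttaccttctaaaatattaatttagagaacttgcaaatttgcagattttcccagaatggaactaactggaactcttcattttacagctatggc
The Rian window has no capitals. The second window of Meg3 also holds 0 CpGs.

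In the rest of the IGF and insulin pathway, both receptor genes and the PI3 kinase gene named here were counted in every library. The list holds 16 genes, of which 8 averaged 1 CPM or above, and its median was 1.19 CPM. The highest by CPM were Pik3r1, a regulatory subunit of PI3 kinase, at 399.9 ± 5.78 CPM, Igf1r, the signalling receptor of IGF1 and IGF2, at 331 ± 49.7 CPM, and the insulin receptor gene Insr at 161 ± 21.0 CPM. Per kilobase of exons Igf1r lay 3.23 ± 0.302 times above Igf2r and 1.68 ± 0.127 times above Insr. Among genes named outside the rule, Igf1 lay at 2.26 ± 0.643 CPM, and of the close relatives of Grb10, Grb7 had 5, 66 and 5 counts and Grb14 had 0, 1 and 4. The binding protein gene Igfbp4 lay at 115 ± 16.3 CPM, while Igfbp1, Igfbp2 and Igfbp3 had no count.

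RNA-binding proteins that hold Igf2 and H19 transcripts were mostly low. Igf2bp3 lay at 26.0 ± 1.64 CPM and Igf2bp2 at 4.14 ± 1.96 CPM, while Igf2bp1 had no count and the fetal regulators Lin28a and Lin28b had 24, 0 and 1 and 0, 0 and 6. All 4 genes of mannose 6-phosphate sorting reached 1 CPM, led by the tagging enzyme gene Gnptab at 247 ± 20.1 CPM and M6pr, the smaller mannose 6-phosphate receptor, at 219 ± 21.0 CPM. Gnptg, a subunit of the tagging enzyme, lay at 21.6 ± 1.54 CPM. Per kilobase of exons, Igf2r lay at 0.118 ± 0.0268 of the level of M6pr.

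The Dlk1-Dio3 domain on chromosome 12 gave a few CPM of the non-coding RNAs Meg3 and Rian and under 1 CPM of Mirg and the protein-coding genes Dlk1, Rtl1 and Dio3. Meg3 (chr12:109541001-109571726, plus strand, ENSMUSG00000021268.17), a maternally expressed long non-coding RNA, was counted 324, 172 and 220 times, or 10.5, 6.85 and 7.33 CPM, a mean of 8.24 ± 2.01 CPM. Library 1 was highest. Rian (chr12:109603940-109661716, plus strand, ENSMUSG00000097451.10), the host of a large family of C/D box small nucleolar RNAs (snoRNAs), was counted 115, 129 and 89 times, or 3.74, 5.14 and 2.96 CPM, a mean of 3.95 ± 1.10 CPM. Here library 2 was highest and library 3 lowest, an order unlike that of Meg3. The ratio of Meg3 to Rian per kilobase of exons was 2.84, 1.34 and 2.49 in libraries 1, 2 and 3.

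Mirg (chr12:109729764-109749460, plus strand, ENSMUSG00000097391.8), the miRNA host RNA at the far end, had 0, 0 and 3 counts, with exact Poisson upper limits of 0.120, 0.147 and 0.292 CPM. Dlk1 (chr12:109452823-109463336, plus strand, ENSMUSG00000040856.17), the paternally expressed membrane protein related to Notch ligands, had 3, 14 and 5 counts, or 0.0977, 0.558 and 0.166 CPM, highest in library 2. Its mean was 0.274 ± 0.248 CPM and 0.132 CPM without library 2. Of the other protein-coding genes there, Rtl1, a retrotransposon-derived gene, had 0, 15 and 3 counts and Dio3, a thyroid hormone deiodinase gene, had none. Outside the imprinted core, Wdr25 lay at 3.16, 4.02 and 8.66 CPM and Begain at 1.14, 2.27 and 0.966 CPM.

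The windows before the starts of Meg3 and Peg3 share a palindromic cAMP response element (TGACGTCA), found in 1.55% of all 250-base windows. The search covered both strands for this element, for the core of the imprint reader Zfp57 (TGCCGC, in 8.68% of windows), for the E-box CACGTG (6.02%) and for TATAAA (12.4%), a set chosen after the windows had been read. Of the 14 member windows, the first of Meg3 held the response element, TATAAA and the Zfp57 core, Peg3 held the response element, and Igf2r held the E-box on 2 occasions. The other 11 held none of them. The 3 windows are shown 5′ to 3′ on the transcript strand with matches in capitals, where overlapping TATAAA matches on both strands run together in Meg3:
Meg3, chr12:109540746-109540995, plus strand: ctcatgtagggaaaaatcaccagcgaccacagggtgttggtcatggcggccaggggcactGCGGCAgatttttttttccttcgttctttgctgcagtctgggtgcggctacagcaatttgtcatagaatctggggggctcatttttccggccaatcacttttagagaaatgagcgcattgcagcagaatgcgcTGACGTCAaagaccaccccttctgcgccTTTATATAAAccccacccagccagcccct
Peg3, chr7:6730420-6730669, minus strand: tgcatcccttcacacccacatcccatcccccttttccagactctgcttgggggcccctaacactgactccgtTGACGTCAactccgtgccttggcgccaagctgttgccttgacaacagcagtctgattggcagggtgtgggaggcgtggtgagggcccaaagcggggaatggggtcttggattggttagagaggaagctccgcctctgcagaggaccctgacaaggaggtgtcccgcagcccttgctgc
Igf2r, chr17:12769707-12769956, minus strand: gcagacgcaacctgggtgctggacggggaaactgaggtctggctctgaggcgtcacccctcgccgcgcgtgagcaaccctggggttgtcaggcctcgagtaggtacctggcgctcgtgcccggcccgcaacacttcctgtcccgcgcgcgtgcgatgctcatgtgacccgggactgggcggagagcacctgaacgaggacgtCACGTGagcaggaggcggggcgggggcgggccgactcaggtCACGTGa
These matches describe the letters of the windows and show no binding.

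Small RNA entries of the domain carried few counts. Of 61 miRNA hairpins between Dlk1 and Dio3, 8 had any count. They sum to 39 counts, of which 25 were in library 2. Mir665 had 1, 18 and 0 counts, and Mir377, in an exon of Mirg, had 0, 0 and 5. Mir1188, inside the span of Rian, had 3, 4 and 0. Library 2 thus held most counts of Rtl1 and Mir665, and library 3 held all counts of Mirg and Mir377. Of 7 snoRNA entries, 5 had any count, 30 in all, led by AF357425 with 6, 8 and 5. The hairpin entries share 367 exon bases with Mirg in GENCODE. How the counting treated a read in such a stretch is not given, so the counts of host and hairpin are uncertain there. The mature miRNAs of Mir665 and Mir377 are shown because their counts fell almost wholly in 1 library, with the pair miR-379-3p and miR-411-3p, which have the same seed, 1 of the shared seeds among 113 mature miRNAs with 104 distinct seeds:
miR-665-5p: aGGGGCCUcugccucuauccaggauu
miR-665-3p: aCCAGGAGgcugaggucccu
miR-377-5p: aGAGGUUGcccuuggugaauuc
miR-377-3p: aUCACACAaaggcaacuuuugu
miR-379-3p: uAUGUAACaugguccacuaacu
miR-411-3p: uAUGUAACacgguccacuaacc

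**Figure D2:**
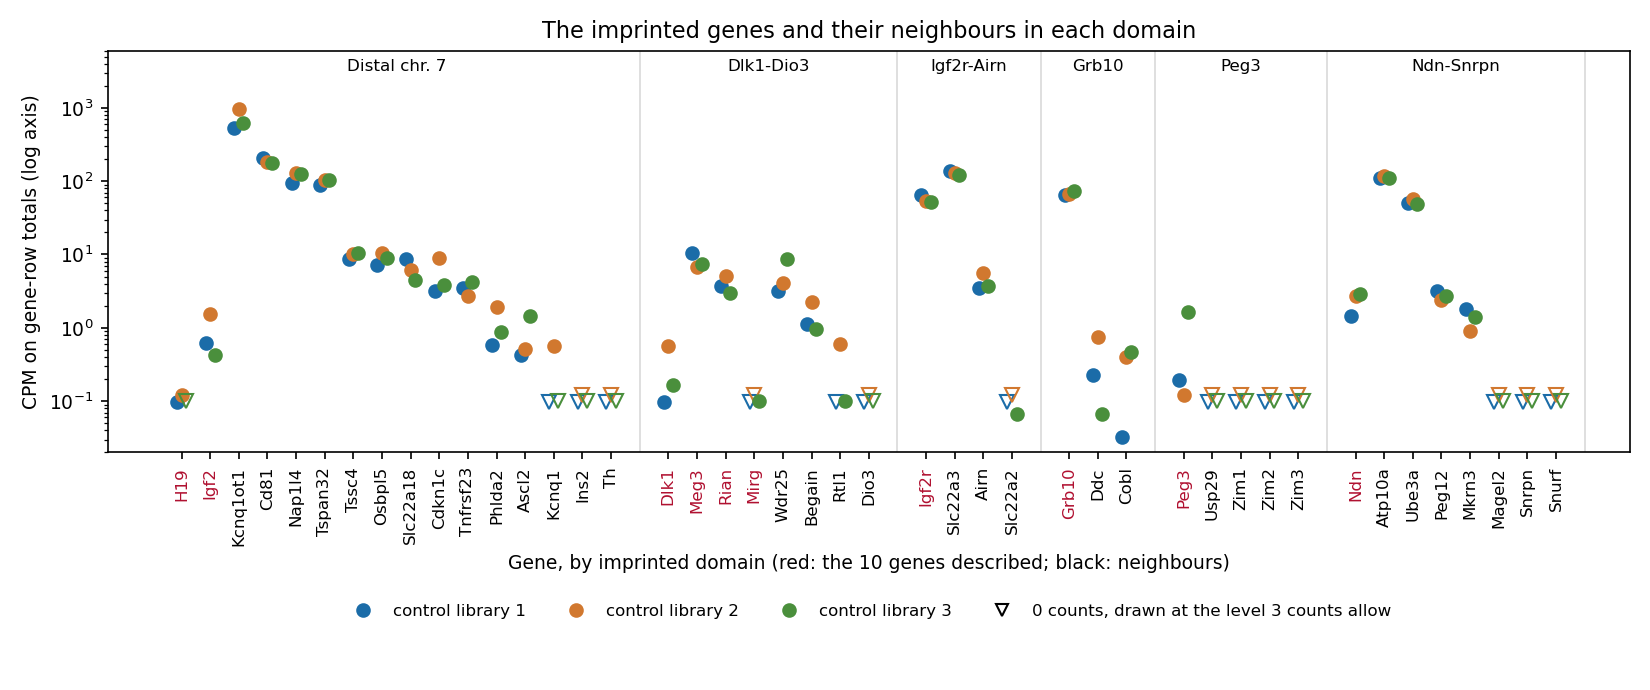
CPM (log axis) of the 10 imprinted genes, in red, and of their listed neighbours, in black, in each control library, by imprinted domain, with open triangles for 0 counts. Kcnq1ot1 and Cd81 stand above 100 CPM beside H19 and Igf2, and the neighbours of Peg3 have no count at all.

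Peg3 was seen almost wholly in 1 library. Peg3 (chr7:6703892-6730431, minus strand, ENSMUSG00000002265.16) encodes a large zinc finger protein expressed from the paternal copy. It had 6, 3 and 50 counts, or 0.195, 0.120 and 1.66 CPM, so library 3 lay 8.52 times above library 1 (exact 95% interval 3.65 to 24.3) and 13.9 times above library 2 (4.50 to 69.8). The mean was 0.660 ± 0.871 CPM, and 0.157 CPM without library 3. Its domain neighbours Usp29, Zim1, Zim2 and Zim3 had no count in any library. Myeloid granule genes, all 8 of them at 1 CPM or above, summed to 960.4, 1871 and 2986 CPM in libraries 1, 2 and 3, with 4 of 8 highest in library 3 and 4 in library 1. Erythroid genes summed to 46.1, 89.4 and 125 CPM with Hbb-b1 and Hba-a1 at 0, and 1, 2 and 3 of the 6 at 1 CPM or above were highest in libraries 1, 2 and 3. Mpo made up most of the myeloid granule sum, and Car1 was the highest erythroid gene, at 16.2, 61.6 and 98.6 CPM. Stromal and endothelial genes summed to 204, 187 and 171 CPM with Col3a1 and Adipoq at 0. Of these 11 genes 5 averaged 1 CPM or above. Most of the sum came from Pecam1, Pdgfrb and Emcn, which averaged 107, 41.4 and 24.8 CPM. Lymphoid genes summed to 473, 483 and 513 CPM, and 1, 0 and 5 of the 6 at 1 CPM or above were highest in libraries 1, 2 and 3. Whether cells of any of these types contributed to the Peg3 counts was not tested.

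Ndn was low but present in every library. Ndn (chr7:62346569-62350262, plus strand, ENSMUSG00000033585.5) encodes necdin, a MAGE family protein that restrains cell growth, from a single exon. It was counted 44, 69 and 86 times, or 1.43, 2.75 and 2.86 CPM, a mean of 2.35 ± 0.795 CPM. Library 1 was the low one, and library 2 lay 1.92 times above it (exact 95% interval 1.30 to 2.87). The myeloid granule, erythroid and lymphoid sums were also lowest in library 1, although at least 1 gene of each list was highest there. Their part in the Ndn counts was not tested. Of 7 neighbours, 4 reached 1 CPM, led by the phospholipid transporter gene Atp10a at 112 ± 4.12 CPM, the ubiquitin ligase gene Ube3a at 51.8 ± 4.23 CPM and Peg12 at 2.75 ± 0.386 CPM. Magel2, the closest relative of Ndn in the domain, had no count. Snrpn and Snurf were both listed at 0, but they share exons, and reads that fit both may have been counted for neither, so their true level is uncertain. All 6 MAGE relatives with an entry reached 1 CPM, led by Maged1 at 61.9 ± 5.13 CPM, with Maged2 at 8.09 ± 0.838 CPM and Ndnl2 at 7.82 ± 1.79 CPM.

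Scaled to exon length, the members fell into an upper pair and a long tail. Grb10 lay at 7.46 ± 0.453 CPM per kilobase of annotated exons and Igf2r at 6.11 ± 0.738, on either side of the median of 6.45 for genes averaging 1 CPM or above. Ndn followed at 0.636 ± 0.215, Meg3 at 0.456 ± 0.111, Rian at 0.217 ± 0.0605, Igf2 at 0.152 ± 0.105, Peg3 at 0.0495 ± 0.0654, Dlk1 at 0.0484 ± 0.0439, H19 at 0.0294 ± 0.0259 and Mirg at 0.00457 ± 0.00791 CPM per kilobase. The ranges of Grb10 and Igf2r, of Igf2r and Ndn, and of Meg3 and Rian did not overlap. The other 6 pairs of neighbours in this order overlapped, although Rian lay above Igf2 within each of the 3 libraries. With library 3 left out, 6 pairs were apart in place of 3. A range over fewer libraries is never wider, so leaving any library out favours pairs that are apart. With the longest transcript as the length, Grb10 lay at 13.4 and Rian at 0.488 CPM per kilobase, the ranges of Meg3 and Rian then overlapped, and those of Rian and Igf2 were then apart.

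**Figure D3:**
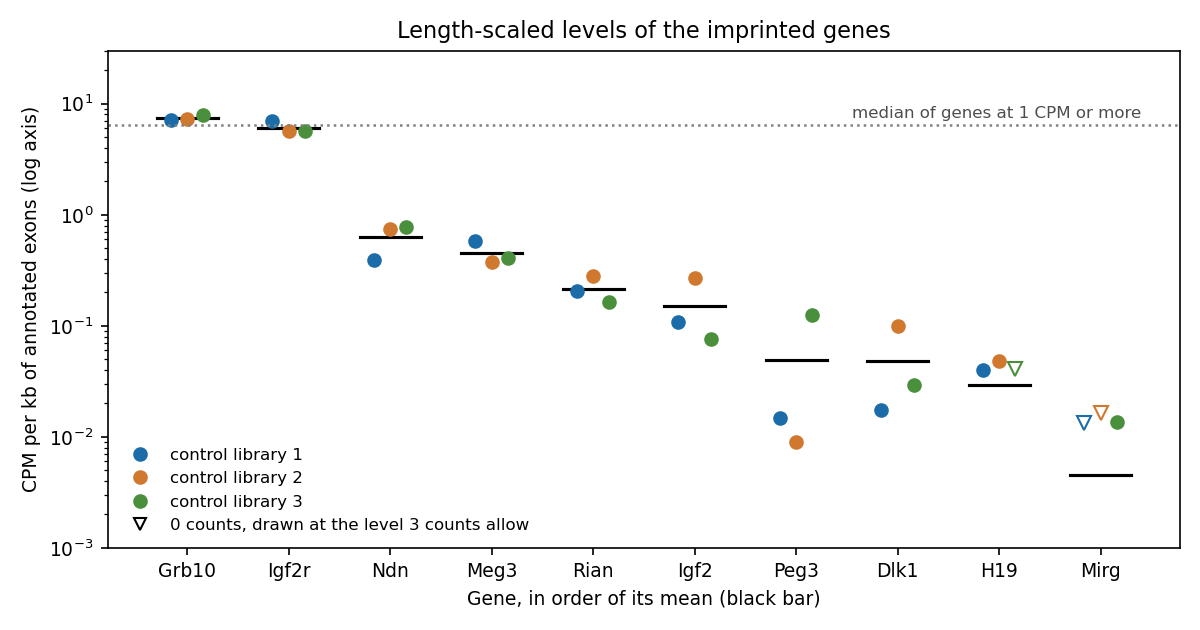
CPM per kilobase of annotated exons (log axis) for each gene in each control library, in order of the mean (black bar), with open triangles for 0 counts and a dotted line at the median of genes at 1 CPM or more. Grb10 and Igf2r sit near that median and the other 8 genes well under it.

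The genes known for maternal expression held both ends of this order. Their medians were 0.394, 0.330 and 0.284 CPM per kilobase in libraries 1, 2 and 3, against 0.0627, 0.185 and 0.100 for the 4 genes known for paternal expression. The maternal set ran from 0.00457 (Mirg) to 7.46 (Grb10) and the paternal set from 0.0484 (Dlk1) to 0.636 (Ndn), so the sets overlap. Of the maternal set 4 of 6 reached 1 CPM and of the paternal set 1 of 4.

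The spread between libraries was then set against that of all genes. A chi-square test on the counts, adjusted over all 12965 genes averaging 1 CPM or above, called 82.6% of them different between libraries beyond read-counting noise, and it called all 5 members tested (Benjamini-Hochberg adjusted p from 7.36e-11 for Igf2r to 8.26e-04 for Grb10). Most genes passed, so this is no result about the members. Each of these calls was lost when a certain library was left out: without library 1, Igf2r, Meg3 and Ndn had adjusted p of 0.828, 0.606 and 0.853. Rian had 0.131 without library 2 and Grb10 0.296 without library 3. Calls were lost over all genes too, from 10707 of 12965 to 6660 of 12963, 8709 of 12941 and 8347 of 12956 without library 1, 2 or 3. Against genes of similar abundance, edgeR's quasi-likelihood dispersion test called 0 of the 5 members after Benjamini-Hochberg adjustment, and 0 of 5 at an unadjusted p under 0.05, with adjusted p of 0.984 for Igf2r and Meg3 and from 0.992 to 0.995 for the other 3. It called 1 gene in all, 0.00771% of those tested, and 30, 14 and 0 genes without library 1, 2 or 3, none of them a member. At an unadjusted p under 0.05 it found 648 of 12965 genes. With 3 libraries and 1 gene called in all, 0 of 5 says little about the members. With no expression minimum, all 10 members could be tested, and the member with the largest excess was Peg3, at 2.83 times the trend (edgeR unadjusted p = 0.0900, adjusted p = 0.980).

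The coefficient of variation was 6.07% for Grb10 and 12.1% for Igf2r, against medians of 9.27% and 9.65% for genes within 1.5-fold of their level. Meg3, Rian and Ndn had 24.4%, 27.9% and 33.9%, against 19.4%, 27.4% and 33.3%. Igf2r and Meg3 were highest in library 1, where long-term stem cell markers summed to 1819 CPM, against 1617 and 1417 in libraries 2 and 3. Of these markers 8 of 12 were highest in library 1, as were 31.9% of all genes tested. The ribosomal precursor Rn45s also took its largest share of gene counts there, 11.8%, against 8.20% and 7.91%. With Rn45s left out of the totals, Igf2r averaged 62.8 and Meg3 9.13 CPM. Scaled to spike-in totals, an alternative chosen after seeing the data, both were highest in library 3, at 40.9, 52.3 and 84.6 scaled CPM for Igf2r and 6.66, 6.74 and 11.8 for Meg3. The factor shared by all genes of a library is largest in library 3, so this shift is not particular to Igf2r and Meg3. The part of the stem cell markers in these levels was not tested. Igf2, Dlk1 and Rian were highest in library 2, and Grb10, Peg3 and Ndn in library 3. Of all genes averaging 1 CPM or above, 35.6% were highest in library 2 and 32.5% in library 3. H19 and Mirg have too few counts to order the libraries.

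**Figure D4:**
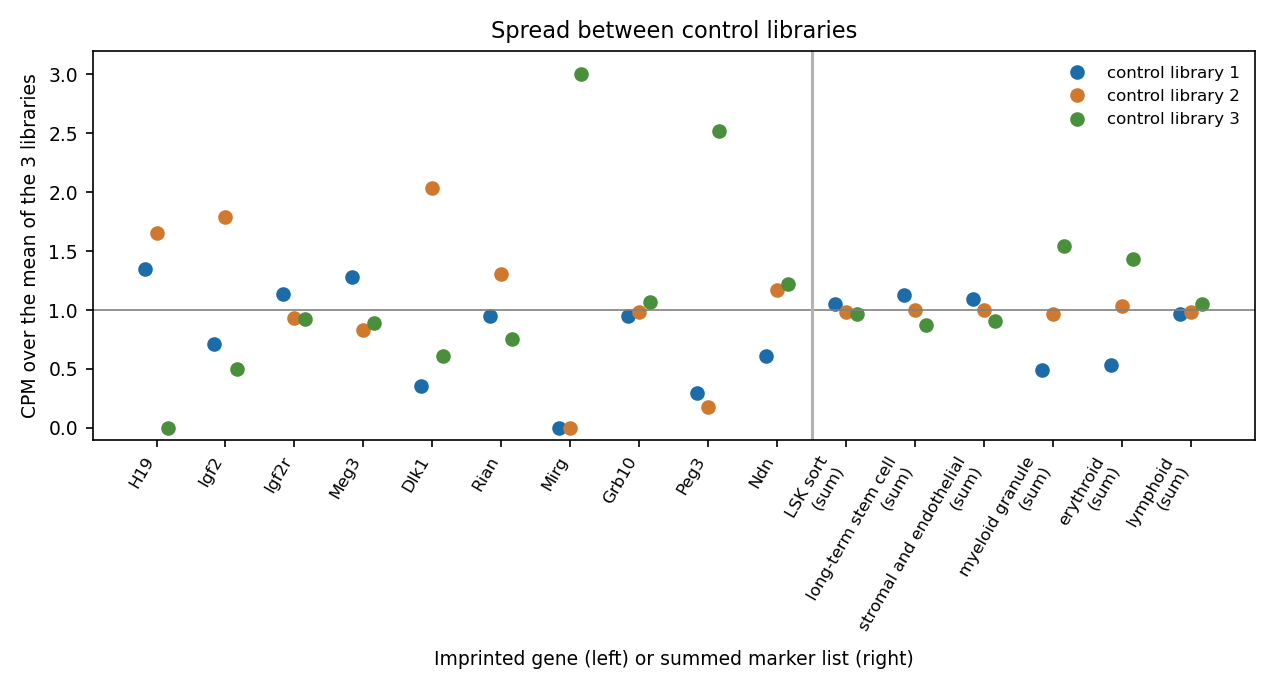
CPM in each control library over the mean of the 3 libraries, for the 10 imprinted genes on the left and for summed marker lists on the right, with a grey line at 1. Grb10 and Igf2r stay close to 1, Peg3 reaches 2.52 in library 3, and the myeloid granule sum ranges from 0.495 in library 1 to 1.54 in library 3.

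The gene levels most like that of Grb10 over the 3 libraries were those of Nsfl1c, Ttk and Vps33b, at distances of 0.0281, 0.0322 and 0.0343 in log2(CPM + 0.5). With 3 libraries this says little more than that their levels are alike.

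Among 27 further imprinted genes with an entry, 21 averaged 1 CPM or above. Their median was 15.9 CPM. The highest were Gnas, which encodes the stimulatory G protein alpha subunit, at 601 ± 21.6 CPM, the signal peptide peptidase gene H13 at 216 ± 7.55 CPM and Phactr2 at 215 ± 19.6 CPM. Many of these are imprinted only in some tissues, such as placenta or brain. Plagl1, a zinc finger gene of the imprinted growth network named outside the rule, had 2, 0 and 6 counts.

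The proteins that keep imprints through cell division were mostly expressed. Of 13 such genes 11 averaged 1 CPM or above, and the median was 116 CPM. The highest were the maintenance methyltransferase gene Dnmt1 at 512 ± 58.6 CPM, the corepressor gene Trim28 at 296 ± 27.7 CPM and Ctcf, the insulator protein that separates Igf2 from its enhancers, at 230.0 ± 4.17 CPM. The zinc finger genes that guide Trim28 to imprints were named outside the rule, Zfp445 at 137 ± 5.77 CPM and Zfp57 at 7.02 ± 0.768 CPM. Dppa3, which guards imprints in the egg, had no count.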

How the data were processed

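The 3 libraries hold RNA of control HSPCs. Per the labels' protocols, 10 ng of RNA was turned into cDNA and amplified with poly(A) and random priming and sheared to 400 bp inserts. The deposited values are unnormalized counts of reads for each gene symbol, made by the authors with TopHat2 2.0.9 and HTSeq on mm10, per the submitters' processing notes. The HTSeq version, its gene model and its handling of strand were not given in the sources used here. Library totals and tests exclude 92 ERCC spike-in and 5 HTSeq category entries. Gene counts were 34.1% to 40.0% of all counts, and ambiguous alignments 0.666% to 0.800%.

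Counts were divided by the total of gene counts to give CPM. Exon lengths and coordinates came from GENCODE M21 (GRCm38, the assembly of mm10), which matched 95.6% of symbols, and sequences from RefSeq (GRCm38.p6). Intervals on counts are exact Poisson, and on ratios exact conditional binomial, at 95%. Genes averaging 1 CPM or above entered a chi-square test of equal CPM (2 degrees of freedom) and a robust intercept-only quasi-likelihood fit in edgeR, in which each gene's quasi-dispersion was set against the trend by an F test. Both used Benjamini-Hochberg adjustment over all genes and a threshold of 0.05, and both were tested on simulated data. With no expression minimum, genes with an expected count under 5 had an exact multinomial test.

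The members and lists were chosen with earlier results of these data known. The text names all members, and the 3 highest genes of each other list, and further named genes were chosen after their values were seen. A few genes of the lists are not reported here and are left out of the list counts. Alternatives were other scalings, minima, lengths and fits and leaving out each library. Software was R 4.3.3, edgeR 4.0.16, DESeq2 1.42.0 (size factors only), Python 3.11.15, NumPy 2.4.6, SciPy 1.17.1 and pandas 2.3.3.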

Additional observations from a re-analysis of the deposited data

Results flagged for a closer look

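The ERCC spike-ins, synthetic RNAs added to a sample before library preparation, carry counts that enter no level above other than the spike-in scaled ones. They had 455900, 239355 and 174913 counts in libraries 1, 2 and 3, far above the 3 counts that a count of 0 allows. As a share of gene and spike-in counts this was 1.46%, 0.945% and 0.579% (95% binomial intervals by Clopper-Pearson: 1.46 to 1.47%, 0.941 to 0.948%, 0.576 to 0.582%). The amount added to each sample is not stated in the labels.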

How the results depend on the processing

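Mean CPM of all 10 members moved by less than 1 SD with TMM or DESeq2 size factors. Totals without Rn45s raised the means of all 10, with Igf2r going from 56.8 to 62.8 CPM and Grb10 from 67.8 to 74.7 CPM. Grb10 alone moved by more than 1 SD there, and its SD is the smallest of the members relative to the mean (6.07%). Leaving out 1 of 3 libraries cannot move a mean by 1 SD, so that measure says nothing there. Without library 3, the mean of Peg3 fell from 0.660 to 0.157 CPM. With ERCC totals as library size, an alternative chosen after seeing the data, Grb10 had 40.6, 65.7 and 116 scaled CPM in libraries 1, 2 and 3, and Igf2r and Meg3 became highest in library 3. All genes of a library share the same factor in this scaling, and it is largest in library 3. Members averaging 1 CPM or above numbered 5, and 3 reached 5 CPM. Neighbours apart in the order numbered 3, and 4 to 6 when 1 library was left out, the highest without library 3. Ranges over fewer libraries are never wider, so a rise was favoured in advance. The maternal median exceeded the paternal by 0.220 CPM per kilobase and, with the longest transcript as length, by 0.380; leaving out 1 library gave 0.164 to 0.257. The chi-square test called 8 of 10 members with no minimum, all but H19 and Mirg, against 74.0% of 17328 genes, and 3 of 3 at 5 CPM, against 8969 of 10622 genes. Without library 1, 2 or 3 it called 2 of 5, 4 of 5 and 5 of 6 members. Over all genes it then called 6660 of 12963, 8709 of 12941 and 8347 of 12956. Both were fewest without library 1, when Igf2r, Meg3 and Ndn were no longer called. The edgeR dispersion test called 1 gene, 18 with no minimum, 4 at 5 CPM, and 0 to 30 without 1 library (30 without library 1, 14 without library 2 and 0 without library 3), but no member under any of these. The causes were not tested, beyond fewer or more genes entering at other minima. No paired analysis was possible because there is 1 group. At this depth, H19 and Mirg cannot be told from absent in single libraries.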

Other observations

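Some other genes of these domains are given here because of their values in single libraries. Grb7, an adaptor related to Grb10, had 5, 66 and 5 counts in libraries 1, 2 and 3, and Wdr25, at the edge of the Dlk1-Dio3 domain, had 97, 101 and 260. Igf2bp2, an RNA-binding protein gene, had 65, 107 and 181 counts, while its relative Igf2bp3 had 790, 697 and 737. Nnat, an imprinted proteolipid gene, had 135, 130 and 45 counts and Asb4, an imprinted gene of the Peg10 cluster, had 21, 14 and 61. Ctcfl, a germ line relative of Ctcf, was counted 464, 510 and 524 times, a mean of 17.6 ± 2.61 CPM. Lin28a had 24, 0 and 1 counts, 24 of them in library 1.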
